A study of Mus musculus with 18 samples.

Results

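The Serpina1 and Serpina3 genes compared here were Serpina1a, Serpina1b, Serpina1c, Serpina1d and Serpina1e, which encode the mouse alpha-1 antitrypsins, and Serpina3k, Serpina3m and Serpina3n, which are related to human alpha-1 antichymotrypsin. They were taken by gene name and made up 8 of the 32285 genes counted, and all 8 passed the filter on low counts. Liver RNA was sequenced from 18 mice in 3 groups of 6, one library per animal. Space pups were 10-week-old F1 mice whose fathers carried transplanted GS cells (spermatogonial stem cells grown in culture) after 6 months of frozen storage aboard the International Space Station. Ground pups, also 10 weeks old, came from GS cells stored frozen on Earth over an equal period. The GS cells were of DBA/2 background and carried an EGFP transgene, the recipient males were W mutants whose own germ cells are largely missing, and the mothers were wild-type C57BL/6 females. BDF1 mice were wild-type controls without a known age, and the labels give the strain B6D2F1 and a wild-type genotype for all 18 animals. The labels give no sex, but the study states that it used both male and female F1 mice in each group. Because the mice of replicates 1 to 3 and of replicates 4 to 6 differed in sex-linked RNA, the groups were compared within each of these replicate sets.

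Serpins are protease inhibitors that present a stretch of their own chain, the reactive centre loop, as bait, and a protease that cuts the loop stays bound to the serpin. The liver secretes alpha-1 antitrypsin and antichymotrypsin-like serpins into the blood, where they restrain neutrophil elastase, cathepsin G and related enzymes. Laboratory mice carry several copies of each gene side by side, and the copies differ within the loop as well as elsewhere, so that they need not inhibit the same proteases.

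The loop is shown first, because it is the part that meets the protease. The codons below were read from the mm10 genome with GENCODE M21 gene models, 5′ to 3′ on the coding strand, and all lie in the last coding exon. In the 5 Serpina1 genes, 15 of 72 bases differed between copies, and these bases are in capitals.
Serpina1a: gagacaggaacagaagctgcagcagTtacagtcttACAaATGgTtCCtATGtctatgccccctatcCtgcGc
Serpina1b: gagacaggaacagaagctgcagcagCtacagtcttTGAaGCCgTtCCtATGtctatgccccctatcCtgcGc
Serpina1c: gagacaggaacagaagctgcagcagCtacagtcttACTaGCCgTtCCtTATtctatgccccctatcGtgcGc
Serpina1d: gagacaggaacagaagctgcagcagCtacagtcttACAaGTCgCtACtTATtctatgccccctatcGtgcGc
Serpina1e: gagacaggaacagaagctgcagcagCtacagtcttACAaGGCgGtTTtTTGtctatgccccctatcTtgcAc

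The codon in front of the shared tctatg run, which corresponds to the residue after which human alpha-1 antitrypsin is cut, was ATG in Serpina1a and Serpina1b, TAT in Serpina1c and Serpina1d, and TTG in Serpina1e. The same stretch of the Serpina3 genes shared its hinge and then diverged, and capitals here run from the first base at which the 3 genes differed.
Serpina3k: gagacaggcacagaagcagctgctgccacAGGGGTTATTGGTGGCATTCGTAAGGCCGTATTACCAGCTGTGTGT
Serpina3m: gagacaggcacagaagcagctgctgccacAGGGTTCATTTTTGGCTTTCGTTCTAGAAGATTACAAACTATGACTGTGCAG
Serpina3n: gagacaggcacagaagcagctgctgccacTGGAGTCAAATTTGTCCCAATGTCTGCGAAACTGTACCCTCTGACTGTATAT

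All 8 genes lie in one serpin cluster on chromosome 12 of mm10, the Serpina1 genes on the minus strand and the Serpina3 genes on the plus strand. Serpina1b (ENSMUSG00000071178) was annotated at chr12:103728156-103830373, Serpina1d (ENSMUSG00000071177) at chr12:103763594-103773592, Serpina1a (ENSMUSG00000066366) at chr12:103853589-103863562, Serpina1c (ENSMUSG00000079015) at chr12:103894926-103904887 and Serpina1e (ENSMUSG00000072849) at chr12:103946931-103958975. Serpina3k (ENSMUSG00000058207) was annotated at chr12:104338486-104346144, Serpina3m (ENSMUSG00000079012) at chr12:104338486-104394257 and Serpina3n (ENSMUSG00000021091) at chr12:104406729-104414329. The annotated span of Serpina1b contained Serpina1d without sharing exon bases with it, Serpina3k and Serpina3m shared 60 exon bases, and 31.5% of the exon length of Serpina1c overlapped B430119L08Rik on the opposite strand.

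The copies were close enough for reads to be assigned to the wrong one. Coding sequences of the 5 Serpina1 genes were 96.3% to 98.5% identical in pairs, with Serpina1a and Serpina1c the closest. Of the 75-base words in the exons, 50.7% were unique to Serpina1a, 81.0% to Serpina1b, 33.9% to Serpina1c, 62.9% to Serpina1d and 80.3% to Serpina1e, and with 150-base words the shares were 64.9%, 88.1%, 49.5%, 76.7% and 92.6%. The Serpina3 genes were 83.5% to 91.8% identical, and at least 90.3% of their 75-base words were unique. How reads fitting several genes were counted is not given in the sources used here, so values of single Serpina1 genes, Serpina1a and Serpina1c above all, are uncertain, and the summed counts of each family are given beside them.

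The promoters of Serpina1b and Serpina1e are shown because they were the most alike of the 5 when gaps were not counted. The genes nevertheless differed in their pattern across libraries. The sequences are from RefSeq on GRCm38.p6, minus strand, from chr12:103738200-103738389 and chr12:103956960-103957147, and capitals mark positions at which the aligned promoters of the 5 Serpina1 genes were not all identical.
Serpina1b promoter: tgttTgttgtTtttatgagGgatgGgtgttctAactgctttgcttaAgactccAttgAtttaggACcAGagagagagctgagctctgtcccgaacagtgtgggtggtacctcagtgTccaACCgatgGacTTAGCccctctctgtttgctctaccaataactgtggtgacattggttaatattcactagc
Serpina1e promoter: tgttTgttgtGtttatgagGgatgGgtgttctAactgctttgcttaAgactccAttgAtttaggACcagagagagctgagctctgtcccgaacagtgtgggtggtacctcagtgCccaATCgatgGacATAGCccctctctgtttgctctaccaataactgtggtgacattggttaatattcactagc

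These windows, of 190 and 188 bases, ended 10 and 62 bases before the RefSeq start, respectively. They were 97.9% identical over 188 aligned bases, against 97.3% for Serpina1a and Serpina1c. The least alike pair, Serpina1c and Serpina1d, had 92.6%. Gaps were not counted, although Serpina1b has bases that Serpina1e lacks, so the rank of the closest pair depends on this rule. Serpina3k and Serpina3m had no promoter entry.

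Total counts per library ranged from 15407450 to 20562351, and the 8 genes held 1.19% to 3.33% of them, with at least 3224 counts per gene and library. CPM are counts per 10⁶ of the library size after scaling with TMM factors (trimmed mean of M values), which were 0.754 in Space replicate 4, 0.762 in Ground replicate 5, 0.705 in Ground replicate 6 and between 0.901 and 1.17 elsewhere. Summed counts of Y-linked genes were 1822 to 2482 in replicates 1 to 3 and 0 to 26 in replicates 4 to 6. Xist counts ran the other way, at 0 to 187 in replicates 1 to 3 and 12218 to 21557 in replicates 4 to 6. This is the pattern of males in the first set and of females in the second. The hepatocyte marker list was detected in every library, with 6 of 6 genes tested and a sum of 55547 to 371840 CPM. Space replicate 4 and Ground replicates 5 and 6 stood apart in Serpina6, a neighbouring gene for the corticosteroid carrier transcortin, with 45519, 44766 and 30906 CPM against 118 to 998 CPM in the other 15 libraries. In bulk liver, fewer hepatocytes and less RNA per hepatocyte cannot be told apart.

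Compared per kilobase of exon, the most abundant member was Serpina3k at 3565 ± 1253 CPM per kb (SD, n = 18), followed by Serpina1e at 2685 ± 1748, Serpina1b at 1981 ± 913, Serpina1c at 1744 ± 488 and Serpina1d at 1147 ± 465. Serpina1a had 608 ± 234, Serpina3n 285 ± 84.1 and Serpina3m 175 ± 30.5 CPM per kb (SD, n = 18). The order from Serpina1d downward held in 18 of 18 libraries, and Serpina1c exceeded Serpina1d in 17 of 18. Neighbours higher in the order did not separate beyond their spread: Serpina3k exceeded Serpina1e in 15 of 18 libraries, Serpina1e exceeded Serpina1b in 11 of 18 libraries, and Serpina1b exceeded Serpina1c in 9 of 18. The highest library exceeded the lowest by 20.9-fold for Serpina1e, against 1.96-fold to 3.48-fold for the other 7 genes.

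Serpina1e thus varied most. In replicates 1 to 3 it had 5186, 6505 and 5420.0 CPM in Space pups, 7684, 4756 and 7574 CPM in Ground pups, and 5222, 4097 and 4958 CPM in BDF1 mice. Replicates 4 to 6 had 5566, 772 and 1069 CPM in Space pups, 1042, 7323 and 8933 CPM in Ground pups, and 428, 438 and 1186 CPM in BDF1 mice. All 9 libraries of the first set were high, whereas in the second set Space replicate 4 and Ground replicates 5 and 6 were high and the other 6 were low. In BDF1 mice, the mean was 6.96-fold higher in replicates 1 to 3 than in replicates 4 to 6, at 4759 ± 588 against 684 ± 435 CPM (SD, n = 3 each), and the sets did not overlap. The corresponding ratios were 2.31 in Space pups and 1.16 in Ground pups, where the sets overlapped. The 3 high libraries of the second set were those with high Serpina6. Without them the ratios were 6.20 in Space pups (2 libraries left in the second set) and 6.40 in Ground pups (1 library left), with no overlap. Since the libraries left out are the high ones, the lack of overlap followed from that choice, which was made after seeing the data.

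**Figure D1:**
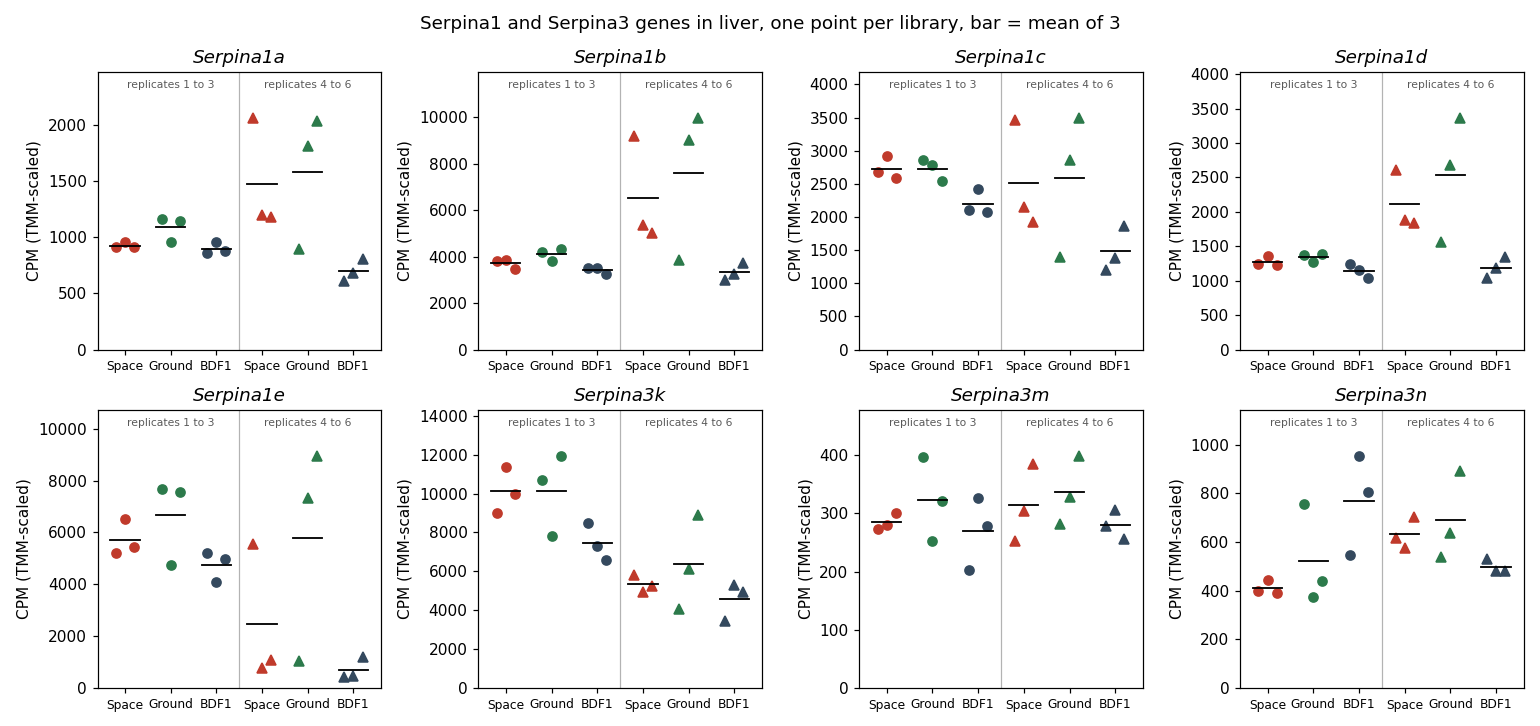
TMM-scaled CPM (linear axes) of the 8 genes in each library, with one panel per gene, libraries of replicates 1 to 3 on the left (circles) and of replicates 4 to 6 on the right (triangles), and a bar at the mean of 3. Serpina1e was low in 6 libraries of replicates 4 to 6, at 428 to 1186 CPM, and high in the other 12, and Serpina1a, Serpina1b and Serpina1d were highest in Space replicate 4 and Ground replicates 5 and 6.

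Serpina1a and Serpina1b, whose loops share the ATG codon, were even in replicates 1 to 3 and uneven in replicates 4 to 6. Serpina1a had 2064, 1196 and 1179 CPM in Space pups of replicates 4 to 6, 896, 1818 and 2038 CPM in Ground pups, and 608, 682 and 807 CPM in BDF1 mice. Serpina1b had 9178, 5351 and 5014 CPM in Space pups of this set, 3838, 9034 and 9964 CPM in Ground pups, and 3016, 3269 and 3710 CPM in BDF1 mice. For both genes all 6 pup libraries of this set lay above all 3 BDF1 libraries, with the 3 libraries of high Serpina6 on top. In replicates 1 to 3, Serpina1a stayed between 859 and 1164 CPM and Serpina1b between 3245 and 4313 CPM over all groups.

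Serpina1d, with the TAT codon, followed the same course. It had 2607, 1887 and 1839 CPM in Space pups of replicates 4 to 6, 1558, 2678 and 3360.2 CPM in Ground pups, and 1044, 1181 and 1338 CPM in BDF1 mice, so that no pup library of this set overlapped the controls. In replicates 1 to 3 it ranged from 1044 to 1387 CPM. Serpina1c, the other gene with this codon, had 3465, 2154 and 1920.5 CPM in Space pups of replicates 4 to 6, 1401, 2857 and 3491 CPM in Ground pups, and 1206, 1386 and 1867 CPM in BDF1 mice. Its Space libraries were all above BDF1 mice in this set, whereas Ground replicate 4 lay within their range.

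Serpina3k, the most abundant Serpina3 gene, had a higher mean in replicates 1 to 3 than in replicates 4 to 6 in each group, which was not tested. It had 9013, 11346 and 10004 CPM in Space pups, 10723, 7818 and 11916 CPM in Ground pups and 8481, 7305 and 6601 CPM in BDF1 mice of replicates 1 to 3. Replicates 4 to 6 had 5823, 4948 and 5267 CPM, 4041, 6127 and 8916 CPM, and 3425, 5289 and 4937 CPM, in the same order of groups. Means of the first set were 1.89-fold those of the second in Space pups, 1.60-fold in Ground pups and 1.64-fold in BDF1 mice, and only the Ground sets overlapped.

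Serpina3n, an acute phase antichymotrypsin that is induced in inflammation, had log2 changes of -0.90 in replicates 1 to 3, which passed, and 0.35 in replicates 4 to 6, which did not (edgeR adjusted p = 0.0455 and 0.362), in Space pups against BDF1 mice, and the difference between sets did not pass (adjusted p = 0.0585). In replicates 1 to 3 it had 397, 445 and 392 CPM in Space pups, 755, 374 and 440.5 CPM in Ground pups, and 548, 952 and 807 CPM in BDF1 mice. Replicates 4 to 6 had 618, 575 and 704 CPM in Space pups, 540.0, 638 and 893 CPM in Ground pups, and 529.7, 481 and 481 CPM in BDF1 mice. Space pups were all below BDF1 mice in the first set, and pups of both kinds were all above BDF1 mice in the second. Serpina3m, the least abundant member, stayed between 203 and 398 CPM in the 18 libraries, and its groups overlapped in both sets.

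The first comparison asked whether storage in space, beyond freezing and transplantation, was followed by a difference in the offspring, and here no difference passed the test in any of the 8 genes. Over all 6 replicates, log2 changes ran from -0.61 to -0.02, with a median of -0.17 against -0.02 for all 12847 genes tested. None of the 8 passed at an adjusted p under 0.05 in the edgeR quasi-likelihood test (lowest adjusted p = 0.804), none at an unadjusted p under 0.05, and none by DESeq2, which called 0.312% of all genes. Of all genes tested, 0% passed at the adjusted and 9.23% at the unadjusted threshold. Within replicates 1 to 3, 0 of 8 passed in edgeR, 0 at the unadjusted threshold and 0 by DESeq2, where the background was 0.00749% and 9.67% of 13356 genes in edgeR and 0.738% by DESeq2. Within replicates 4 to 6, the counts were again 0, 0 and 0, against 0.0225%, 13.9% and 1.6% of all genes.

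The largest difference between Space and Ground pups among the 8 genes was that of Serpina1e in replicates 4 to 6. Its log2 change was -1.23 ± 0.69 (SE), with means of 2469 ± 2686 CPM in Space pups and 5766 ± 4170 CPM in Ground pups (SD, n = 3 each), and an adjusted p of 0.440 in edgeR. One Space library of 3 and 2 Ground libraries of 3 carried the high level, and an interval of 2 SE to either side included both no change and a several-fold one. Leaving out Space replicate 4 alone moved it to -2.64 (adjusted p = 0.0694), and leaving out the 3 libraries of high Serpina6 moved it to -0.17 (adjusted p = 0.910). These were the ends of the range of its adjusted p over the alternatives.

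The second comparison asked how both kinds of pups differed from mice of ordinary descent. Over all 6 replicates, 0 of 8 genes passed between Space pups and BDF1 mice in edgeR (lowest adjusted p = 0.154), 4 passed at the unadjusted threshold and 0 by DESeq2, where 3.80% and 20.8% of all genes passed the adjusted and the unadjusted threshold and 8.02% passed by DESeq2. Between Ground pups and BDF1 mice 0 of 8 passed in edgeR (lowest adjusted p = 0.0795, for Serpina1a), 4 at the unadjusted threshold and 3 by DESeq2, against 3.81%, 20.7% and 8.46% of all genes. With the replicate set as a covariate, 2 of 8 passed in edgeR, Serpina1a (adjusted p = 0.0474) and Serpina1d (0.0304), against 11.2% of all genes. Both comparisons share the BDF1 libraries. The pooled log2 changes against BDF1 mice were 0.74 for Serpina1a, 0.80 for Serpina1b, 0.73 for Serpina1d and 1.19 for Serpina1e in Ground pups, with 0.59 for Serpina1a in Space pups.

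In replicates 4 to 6, 3 of the 5 alpha-1 antitrypsin genes in Space pups and 4 of the 5 in Ground pups were higher than in BDF1 mice. In Space pups 3 of 8 genes passed in edgeR, all upward, and 4 by DESeq2, where 11.9% of all genes passed in edgeR and 15.9% by DESeq2. On the log2 scale, Serpina1a rose by 1.08 ± 0.25 (SE, edgeR adjusted p = 0.0132), Serpina1b by 0.97 ± 0.28 (adjusted p = 0.0352) and Serpina1d by 0.83 ± 0.22 (adjusted p = 0.0218). Serpina1c had a log2 change of 0.76 (adjusted p = 0.0800) and Serpina1e of 1.84 ± 0.70 (adjusted p = 0.0936), neither of which passed in edgeR, and without Space replicate 4 that of Serpina1e was 0.43 (adjusted p = 0.718). The median over the 5 Serpina1 genes was 0.97 against 0.0094 for all genes tested. No library of Serpina1a, Serpina1b, Serpina1c or Serpina1d overlapped the controls, but the share of all genes that separated in this way was not computed.

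In Ground pups of replicates 4 to 6, 4 of 8 genes passed in edgeR, again upward, and 5 by DESeq2, where 15.2% of all genes passed in edgeR and 18.1% by DESeq2. Serpina1e rose by 3.07 ± 0.74 (SE, adjusted p = 0.0109), Serpina1b by 1.19 ± 0.28 (adjusted p = 0.0101), Serpina1a by 1.18 ± 0.25 (adjusted p = 0.00613) and Serpina1d by 1.09 ± 0.22 (adjusted p = 0.00372). Serpina1c had a log2 change of 0.80 (adjusted p = 0.0606). The median of the 5 Serpina1 genes was 1.18 against 0.0098 for all genes. Although Serpina1e had the highest fold, its Ground and BDF1 libraries overlapped, because Ground replicate 4 had 1042 CPM and BDF1 replicate 6 had 1186 CPM.

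The Serpina3 genes did not pass in this set. Log2 changes against BDF1 mice were 0.23 in Space and 0.48 in Ground pups for Serpina3k, 0.17 and 0.26 for Serpina3m, and 0.35 and 0.47 for Serpina3n, with medians of 0.23 and 0.47 over the 3 genes. When libraries were scaled by total counts alone, all 6 of these values turned negative, from -0.04 to -0.24, while the median of all genes moved to -0.39 in Space and -0.46 in Ground pups. Under that scaling the 7 Serpina1 calls remained, with log2 changes of 0.65, 0.54 and 0.41 for Serpina1a, Serpina1b and Serpina1d in Space pups and 0.65, 0.65 and 0.56 in Ground pups, and 2.51 for Serpina1e in Ground pups. All of them were above the median of all genes under either scaling.

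**Figure D2:**
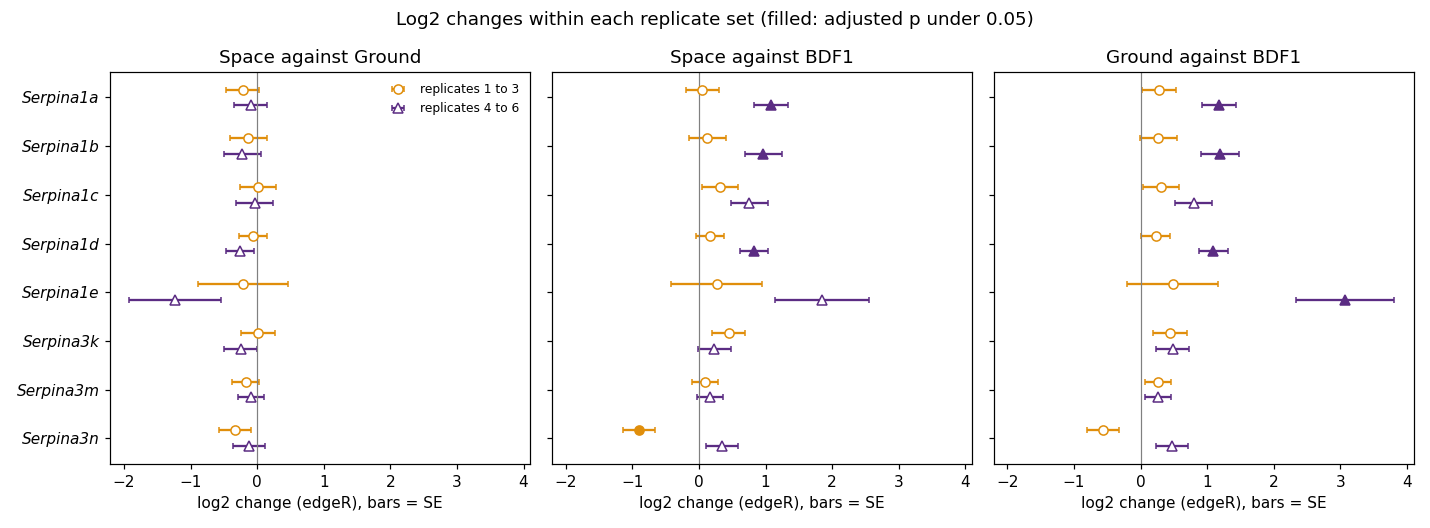
Log2 changes with standard errors (edgeR) of the 8 genes in the 3 comparisons, for replicates 1 to 3 (circles) and replicates 4 to 6 (triangles), filled where the adjusted p was under 0.05. Filled points are Serpina1a, Serpina1b and Serpina1d in Space pups against BDF1 mice, the same genes and Serpina1e in Ground pups against BDF1 mice, all in replicates 4 to 6, and Serpina3n in Space pups against BDF1 mice in replicates 1 to 3.

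These calls rested to differing degrees on the libraries with high Serpina6. Without Space replicate 4 and Ground replicates 5 and 6, a choice made after seeing the data, Serpina1a, Serpina1b and Serpina1d still passed in Space pups in edgeR, with log2 changes of 0.77, 0.64 and 0.65, where 9.62% of all genes passed. In Ground pups, of which only replicate 4 remained in this set, none passed, against 7.56% of all genes, and the log2 changes were 0.35 for Serpina1a, 0.19 for Serpina1b, 0.38 for Serpina1d and 0.60 for Serpina1e (adjusted p = 0.208, 0.478, 0.144 and 0.455, each the highest over that gene's alternatives). That single library is assumed to vary like the other groups. Without Space replicate 4 alone, the log2 changes in Space pups were again 0.77 for Serpina1a, 0.64 for Serpina1b and 0.65 for Serpina1d, but none of them passed. The fit without the 3 libraries also dropped Ground replicates 5 and 6 from the estimate of the spread, which all groups share.

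When the libraries were left out one at a time, Serpina1a, Serpina1b and Serpina1d in Ground pups passed in all 18 fits. Serpina1e in Ground pups was lost without BDF1 replicate 4 or BDF1 replicate 5, with the adjusted p between 0.00171 and 0.0541. In Space pups, Serpina1a, Serpina1b and Serpina1d were lost without Space replicate 4, BDF1 replicate 4 or BDF1 replicate 5, and Serpina1b also without BDF1 replicate 6. Their highest adjusted p values over these fits were 0.0695, 0.169 and 0.0948. With the replicate number as a block, Serpina1b in Space pups was lost (adjusted p = 0.0844, in a range of 0.00426 to 0.169 over the alternatives). In the 9 libraries of the set alone, 0 of 8 genes passed in Space and 1, Serpina1d, in Ground pups, against 4.39% and 6.89% of all genes. The adjusted p was then 0.0886, 0.146 and 0.111 for Serpina1a, Serpina1b and Serpina1d in Space pups, and 0.0558, 0.0754, 0.0442 and 0.0754 for Serpina1a, Serpina1b, Serpina1d and Serpina1e in Ground pups.

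**Figure D3:**
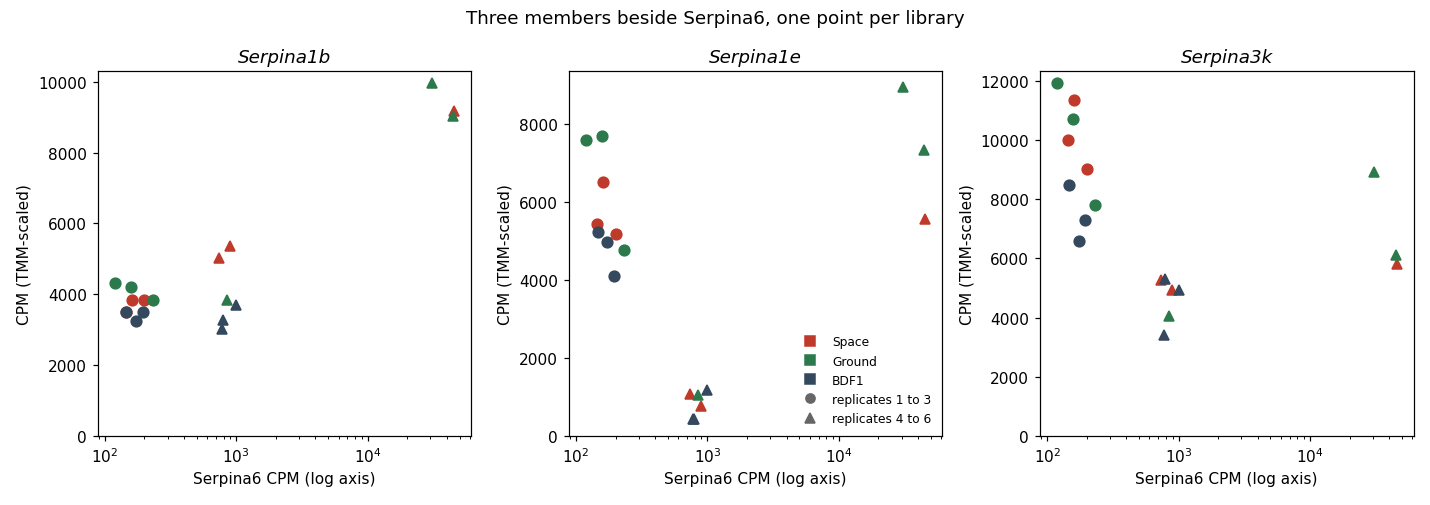
CPM of Serpina1b, Serpina1e and Serpina3k against Serpina6 CPM (log axis) in each library, coloured by group, with circles for replicates 1 to 3 and triangles for replicates 4 to 6. The 3 libraries with Serpina6 of 30906 CPM or more had the highest Serpina1b levels, from 9034 to 9964 CPM, and were the only libraries of replicates 4 to 6 with Serpina1e above 1186 CPM.

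In replicates 1 to 3, the call among the 8 genes was in the Serpina3 family. In Space pups against BDF1 mice, Serpina3n fell by 0.90 ± 0.24 in log2 units (SE, edgeR adjusted p = 0.0455), at 411 ± 29.1 against 769 ± 205 CPM (SD, n = 3 each). That was 1 of 8 genes, where 4.64% of all genes passed. In Ground pups its log2 change was -0.56 (adjusted p = 0.268) at 523 ± 204 CPM, so that 0 of 8 genes passed in edgeR, 1 at the unadjusted threshold and 0 by DESeq2, against 1.92%, 15.9% and 4.92% of all genes. The Serpina3n call was near the threshold: it was lost in 10 of 18 fits without one library (highest adjusted p = 0.190, without BDF1 replicate 2, log2 change -0.71). These were the fits without Space replicates 1, 2, 3, 5 or 6 and without BDF1 replicates 2 to 6. It was also lost with the replicate block (adjusted p = 0.103) and in the 9 libraries of the set alone (0.0502), in a range of 0.00605 to 0.190 over the alternatives. The Serpina1 genes did not pass in this set, with medians of 0.16 in Space and 0.27 in Ground pups, and the Serpina3 medians were 0.087 and 0.26, against -0.0036 and 0.0086 for all genes.

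Whether the changes themselves differed between the replicate sets was tested as the change in replicates 1 to 3 minus that in replicates 4 to 6. For Space pups against BDF1 mice 0 of 8 genes passed in edgeR, 4 passed at the unadjusted threshold and 1 by DESeq2, where 3.19%, 19.0% and 6.36% of all genes passed. The lowest adjusted p was 0.0585, for Serpina3n with a difference of -1.24 ± 0.34 (SE), and Serpina1a had -1.03 (adjusted p = 0.125). For Ground pups against BDF1 mice 0 of 8 passed, with 5 at the unadjusted threshold and 1 by DESeq2, against 2.74%, 17.3% and 5.86% of all genes. Here Serpina3n had a difference of -1.03 (adjusted p = 0.123), Serpina1e of -2.59 (adjusted p = 0.175) and Serpina1a of -0.91 (adjusted p = 0.194). For Space against Ground pups the counts were 0, 0 and 0, against 0%, 7.77% and 0.225%. A pass in one set and not in the other was therefore not shown to be a difference between the sets in the edgeR fit to all 18 libraries after filtering. Some alternatives did call such differences. Without the 3 libraries of high Serpina6, Serpina3n (-1.27, adjusted p = 0.0418) and Serpina1a (-0.72, adjusted p = 0.0241) passed for Space pups against BDF1 mice, where 5.49% of all genes passed, and the difference of Serpina1e was -0.17 in Space and -0.11 in Ground pups and that of Serpina1a -0.07 in Ground pups. Over its alternatives the adjusted p of Serpina3n ranged from 0.00993 to 0.145 and that of Serpina1a from 0.0241 to 0.263.

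Summed over the family, which removes the split of reads among its copies but not a loss of shared reads, the Serpina1 genes had 13856, 15577 and 13632 CPM in Space pups, 17278, 13583 and 16966 CPM in Ground pups and 12931, 12123 and 12208 CPM in BDF1 mice of replicates 1 to 3. The pups were all above the controls, by 1.16-fold and 1.28-fold in the means. In replicates 4 to 6 the sums were 22879, 11360 and 11021 CPM in Space pups, 8735, 23710 and 27787 CPM in Ground pups and 6301, 6957 and 8908 CPM in BDF1 mice. The Space mean was 2.04-fold that of BDF1 mice without overlap, and the Ground mean was 2.72-fold with overlap, since Ground replicate 4 lay below BDF1 replicate 6. Space over Ground was 0.751 in this set and 0.900 in replicates 1 to 3, with overlap in both. Without the 3 libraries of high Serpina6, the log2 ratio of means in replicates 4 to 6 was 0.24 in place of 1.44 for Ground over BDF1, 0.60 in place of 1.03 for Space over BDF1, and 0.36 in place of -0.41 for Space over Ground, which turned its direction.

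The Serpina3 sums, of which Serpina3k made up 80.9% to 94.0%, were 9684, 12072 and 10696 CPM in Space pups, 11875, 8444 and 12678 CPM in Ground pups and 9232, 8584 and 7686 CPM in BDF1 mice of replicates 1 to 3. Those of replicates 4 to 6 were 6695, 5826 and 6357 CPM, 4863, 7095 and 10207 CPM, and 4233, 6076 and 5674 CPM, in the same order of groups. Space pups were above BDF1 mice without overlap in the first set, by 1.27-fold, and the other comparisons of pups with controls overlapped, with ratios of 1.29 for Ground pups in the first set and 1.18 and 1.39 for Space and Ground pups in the second. Under scaling by total counts, the log2 ratio of the Serpina3 sum to BDF1 mice in the second set turned from 0.24 to -0.17 in Space pups and from 0.47 to -0.059 in Ground pups. Without the 3 libraries of high Serpina6, the log2 ratio in the second set turned from 0.47 to -0.13 for Ground over BDF1 and from -0.23 to 0.33 for Space over Ground. In BDF1 mice and Space pups, the Serpina3 sum was higher in replicates 1 to 3 than in replicates 4 to 6 without overlap.

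**Figure D4:**
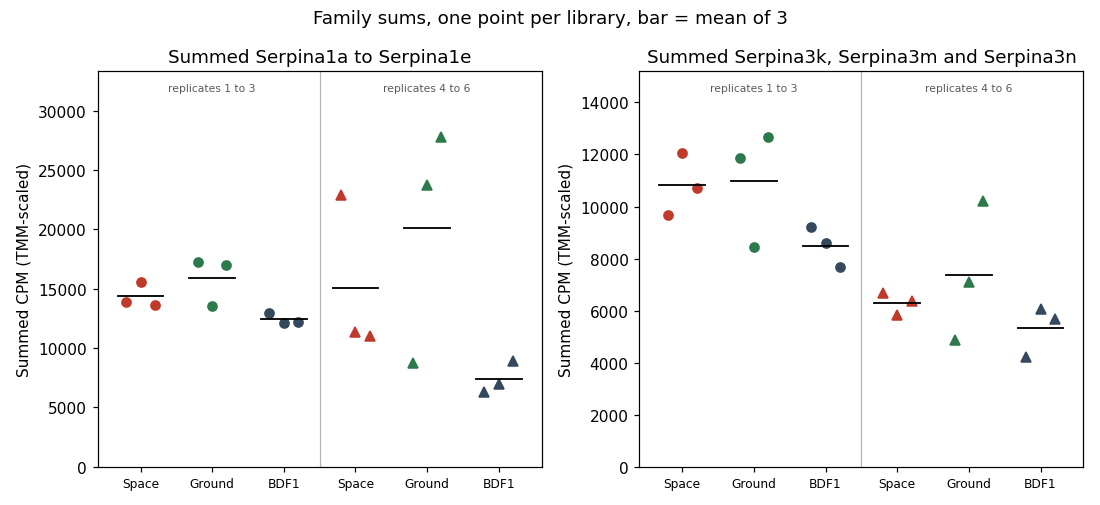
Summed CPM (TMM-scaled, linear axes) of the 5 Serpina1 genes and of the 3 Serpina3 genes in each library, by group and replicate set, with a bar at the mean of 3. The Serpina1 sum reached 22879 CPM in Space replicate 4, 23710 CPM in Ground replicate 5 and 27787 CPM in Ground replicate 6, against at most 17278 CPM in the other libraries.

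The make-up of the Serpina1 counts, which is free of scaling, separated the replicate sets more than the groups. Serpina1e held 39.7 ± 2.17% of the family's counts in Space pups, 41.4 ± 5.51% in Ground pups and 38.3 ± 3.87% in BDF1 mice of replicates 1 to 3 (SD, n = 3 each). The second set gave 13.6 ± 9.40%, 25.0 ± 11.3% and 8.80 ± 3.92%. By library, the second set had 24.3%, 6.80% and 9.70% in Space pups, 11.9%, 30.9% and 32.1% in Ground pups, and 6.78%, 6.30% and 13.3% in BDF1 mice. None of these 9 libraries reached the lowest of replicates 1 to 3, 33.8%, so that the 3 libraries with high Serpina6 came nearest but did not overlap. The share of Serpina1b ran the other way, from 24.3% to 28.8% in replicates 1 to 3 and from 35.9% to 47.9% in replicates 4 to 6.

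**Figure D5:**
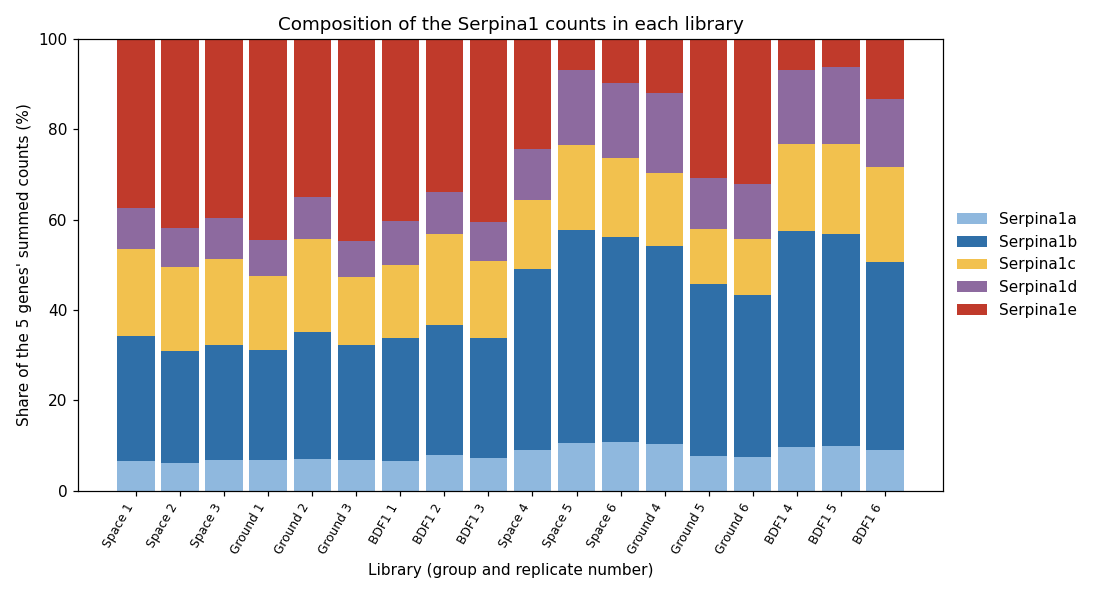
Share of each Serpina1 gene in the summed counts of the 5 genes (%), one bar per library, in the order Space, Ground and BDF1 for replicates 1 to 3 and then for replicates 4 to 6. Serpina1e held at least 33.8% in each library of replicates 1 to 3 and at most 32.1% in each library of replicates 4 to 6, where Serpina1b was the larger share.

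Correlations of log2 CPM over the 18 libraries, which share groups and replicate sets, are given as descriptions. Serpina1b and Serpina1d had a Pearson r of 0.979, Serpina1a and Serpina1b of 0.959 and Serpina1a and Serpina1d of 0.916. Serpina1e was closest to Serpina1c (0.875) and Serpina3k (0.830), and had 0.550, 0.362 and 0.256 with Serpina1a, Serpina1b and Serpina1d. Serpina1c lay between, with 0.754 to Serpina1a, 0.608 to Serpina1b and 0.511 to Serpina1d, although it shares the TAT codon with the last. Serpina3m and Serpina3n had at most 0.510 with any other member, and Serpina3k and Serpina3n had -0.12. Outside the 8 genes, the gene most like Serpina3n was Serping1, for the complement C1 inhibitor (r = 0.957). The others were Brpf3 for Serpina1a (0.938), 1300017J02Rik, an inhibitor of carbonic anhydrase, for Serpina1b (0.965), Nme2 for Serpina1c (0.937), Acp5 for Serpina1d (0.973), Skil for Serpina1e (0.942), Chordc1 for Serpina3k (0.900) and Usp27x for Serpina3m (0.733).

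Other genes of the same cluster and function are given here against BDF1 mice with edgeR. Of all genes tested, 4.64% passed in Space and 1.92% in Ground pups of replicates 1 to 3, and 11.9% and 15.2% in replicates 4 to 6, where leaving out the 3 libraries of high Serpina6 gave 9.62% and 7.56%. Of 9 tested further Serpina genes of the cluster, Serpina12, for the adipokine vaspin, rose in both kinds of pups in both sets. Its log2 changes were 1.75 in Space and 1.28 in Ground pups of replicates 1 to 3 (adjusted p = 0.00633 and 0.0472) and 2.53 and 2.45 in replicates 4 to 6. Serpina6 rose in replicates 4 to 6 by 4.19 in Space and 4.90 in Ground pups, but had log2 changes of -0.07 and -0.03 without the 3 libraries, and Serpina10, an inhibitor of factor Xa, rose by 0.88 in Ground pups (0.12 without them). Serpina12 was still called without them, with 2.32 and 2.00. Of 7 plasma serpins outside the cluster, Serpinf1 rose in Space pups of replicates 1 to 3 (0.50), and Serpinc1 (antithrombin, 0.65) and Serpind1 (heparin cofactor 2, 0.49) rose in Ground pups of replicates 4 to 6, where neither was called without the 3 libraries (0.13 and 0.09). No gene of any list named here or below passed between Space and Ground pups.

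Of 11 other plasma protease inhibitors, leaving out A2m, none passed in replicates 1 to 3. In the second set, 3 rose in Space pups, namely Kng1 (1.07), Pzp (0.66) and Kng2 (0.59), and the median of the 11 was 0.59. In Ground pups of this set 6 rose, with a median of 0.59, among them Itih4 (2.38), Pzp (1.21) and Kng1 (1.19). A2m, which was also called upward in Ground pups of the second set (adjusted p = 0.00939) and would make 7 of 12, was left out after its values were seen, because its counts lay mostly in Ground replicates 5 and 6, with 69 and 34 counts against 0 to 10 in each other library. Kng1 and Pzp were still called in Space and Pzp in Ground pups without the 3 libraries, where Itih4 had 0.25 in Ground pups. Of 6 proteases that these serpins inhibit, 2 could be tested. Cela1, a pancreatic-type elastase, fell in both kinds of pups of replicates 4 to 6, with log2 changes of -1.29 in Space and -1.95 in Ground pups (adjusted p = 0.00182 and 8.06e-05). Prtn3, for neutrophil proteinase 3, had log2 changes of 3.39 ± 1.31 and 2.84 ± 1.39 (SE) and was not called (adjusted p = 0.0978 and 0.180). Ctsg, for cathepsin G, had no count in any library outside Space pups of replicates 4 to 6.

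Of 20 acute phase genes, 0 passed in Space and 1 (Cd14) in Ground pups of replicates 1 to 3, with medians of -0.68 and -0.21. In the second set, 11.9% of all genes passed in Space and 15.2% in Ground pups. Of the acute phase genes, 4 rose in Space pups (Cd14, Cp, Apcs and Orm1) with a median of 0.73. In Ground pups 7 rose, among them Cp (2.61), Lbp (1.32) and Apcs (1.11), and Orm3 fell (-1.30), with a median of 0.81. Without the 3 libraries, Cd14, Cp (0.73) and Apcs were still called in Space pups and none of the 20 in Ground pups, where Cp had 0.69. Of 16 transcription factors and interleukin-6 receptor genes that act on liver serpin genes, Cebpb rose in both kinds of pups in replicates 1 to 3 (1.42 and 1.39) and Cebpd in Space pups (1.10). In the second set Foxa3 (1.64 and 1.75) and Il6ra (1.17 and 1.59) rose in both, and both genes were still called without the 3 libraries. Of 10 growth hormone and STAT5 genes, Stat5a fell in Space pups of replicates 1 to 3 (-0.95) and Ghr, the growth hormone receptor, rose in Ground pups of replicates 4 to 6 (2.39, and 0.03 without the 3 libraries, where it was not called). Bcl6, a repressor that acts on STAT5 targets, was not called with all libraries (adjusted p = 0.163 and 0.426) and was called without the 3 libraries in both kinds of pups (2.26 and 2.36). Of 13 genes for folding, export and disposal in the endoplasmic reticulum, through which these serpins pass, Mcfd2, for a cargo receptor subunit, rose in both kinds of pups of replicates 4 to 6 (0.45 and 0.54) and was not called without the 3 libraries. In the lists after the acute phase genes, the called share in the second set was near or below that of all genes.

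Some markers of liver and blood cells were also called between pups and BDF1 mice. Of all genes, 11.9% passed in Space and 15.2% in Ground pups of replicates 4 to 6, and 4.64% and 1.92% in replicates 1 to 3. In replicates 4 to 6, 2 of 6 hepatocyte markers, Alb and Apoa1, rose in both kinds of pups, and the summed list ranged from 221603 to 276386 CPM in Space pups, 215065 to 371840 CPM in Ground pups and 72869 to 94079 CPM in BDF1 mice. The sum was mostly Alb, and the median log2 change of the 6 markers was 0.30 in Space and 0.08 in Ground pups. Alb alone took 17.6% to 24.1% of counts in the 6 pup libraries of this set and 6.72% to 8.03% in its BDF1 libraries. Of 5 erythroid markers, 4 rose in both kinds of pups, with sums of 200.3 to 722, 102 to 584 and 32.3 to 87.7 CPM in the same order. Neutrophil markers summed to at most 4.16 CPM in any library, 1 of 2 tested genes, S100a9, rose in Space pups, and Ly6g had no count outside Space pups of replicates 4 to 6. The summed Kupffer cell list ranged from 121 to 166, 108 to 166 and 59.6 to 129 CPM, and 1 of its 6 genes, Clec4f, rose in Space pups. Of 5 endothelial, 5 stellate and 4 bile duct markers in this set, Stab2 rose (1.03) and Sox9 fell (-0.97) in Ground pups and Lrat fell (-1.07) in Space pups. When the 3 libraries were left out, Alb, Apoa1 and the 4 erythroid genes were still called in both kinds of pups, whereas S100a9, Clec4f, Stab2, Sox9 and Lrat were not. Other markers were called only then, namely the hepatocyte marker Tat downward in both kinds of pups (-1.45 and -1.47), the stellate cell marker Des downward in Ground pups (-1.64) and the neutrophil marker Ngp upward in Space pups (4.07), which did not pass the filter with all 18 libraries. Within the set of the Serpina3n call, replicates 1 to 3, Dcn of the stellate list rose (0.61) and Sox9 fell (-1.09) in Space pups, and Stab2 rose (0.90) in Ground pups, whereas no hepatocyte, Kupffer cell, neutrophil or erythroid marker passed. The part of these markers in the Serpina1 and Serpina3n changes was not tested. The age of the BDF1 mice and their descent cannot be told apart from the difference between pups and controls.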

How the data were processed

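Livers of 18 mice, 6 in each of 3 groups, were profiled by RNA sequencing, and groups and replicate numbers follow the labels. Per the labels and the series' design text, the libraries were strand-specific mRNA libraries read from both ends. The study's methods describe single reads from another library kit and sequencer for its RNA sequencing in general, so the labels were followed, and the read length of these libraries is not given in the sources used here. The submitters' processing notes name bcl2fastq 2.20, cutadapt 4.6, HISAT2 2.2.1, HTSeq 2.0.2 and mm10. The counting mode, the strand setting and the handling of reads that fit several genes are not given in the sources used here. The authors deposited unnormalized counts of reads for 32285 genes, of which 10671 had no count.

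After filterByExpr and TMM scaling, quasi-likelihood models were fitted to all 18 libraries in edgeR 4.0.16 (R 4.3.3). Group alone was used for the comparisons over 6 replicates (12847 genes), and the 6 combinations of group and replicate set were used for comparisons within replicates 1 to 3 and 4 to 6 and for the difference between sets (13356 genes). A gene was called where its p, adjusted over all genes tested after Benjamini and Hochberg, was under 0.05. All adjusted p values in the text are from these edgeR models unless DESeq2 is named, whose shares are of genes with an adjusted p, and they measure only the spread between these mice. Each standard error was obtained by dividing the size of the log2 change by the root of its F statistic, and a prior count of 2 entered log2 CPM. Family sums were not tested. Any pair of libraries within a group differed by a chi-square of at least 9.78 per gene, well beyond sampling noise, so all 18 were kept as separate samples.

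The 8 genes and all lists were chosen with earlier results of these data known. All 8 are reported, together with the called genes of each list (up to 4 per comparison by absolute log2 change, and counts for the others) and, for each of the 8, the tested gene with the highest Pearson r. Some results under this rule are not reported here. Sequences were read from mm10 with GENCODE M21 and aligned with mafft 7.526, and promoters were taken from RefSeq, in which 6 of 8 genes had an entry. Libraries of the same number deviated together from their group means (correlations from 0.231 to 0.654 over 18 pairs). This pairing comes from the data, since the labels name no shared litter or batch, and the replicate numbers also follow the sex-linked genes.

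Alternatives were DESeq2 1.42.0 and its size factors, total counts, no filter, the replicate number as a block, the replicate set as a covariate, the 9 libraries of a set alone, and leaving out each library. Leaving out Space replicate 4 with Ground replicates 5 and 6 was added after seeing the data, for the 8 genes, their sums and the lists.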

Additional observations from a re-analysis of the deposited data

Results flagged for a closer look

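Of 30 sets of 6 libraries (8 genes and both family sums in 3 groups), 2 had a library set apart from the other 5, where chance alone would give about 1.5. Both were Space replicate 4, which also had high Serpina6. Serpina1a had 2064 CPM in it against 1196 CPM in the next highest Space library, and this gap was 0.753 of the range of the group. Serpina1b had 9178 CPM against 5351 CPM, a gap of 0.673 of the range.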

How the results depend on the processing

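Of the single-gene log2 changes given in the report, recomputed under each alternative, 672 kept direction and side of the threshold, 35 were no longer called, 27 were newly called and 10 changed sign. The number of the 8 genes called moved by over 1.5 times, or from or to 0, as follows. Ground against BDF1 over all replicates gave 3 with the DESeq2 test and 2 with the replicate set as a covariate. Space against BDF1 in replicates 1 to 3 gave 0 with the replicate block and 0 in the 9 libraries of the set alone. In replicates 4 to 6, the 9 libraries alone gave 0 for Space and 1 for Ground against BDF1, and leaving out Space replicate 4 and Ground replicates 5 and 6 gave 0 for Ground. The difference between sets for Space against BDF1 gave 1 without the filter, 1 with the DESeq2 test and 2 without the 3 libraries, and for Ground against BDF1 it gave 1 with the DESeq2 test. The replicate block, besides the lost calls of Serpina3n and Serpina1b in Space pups given in the report, changed no other call of the 8 genes.

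Leaving out one library at a time gave 0 to 1 of the 8 genes for Ground against BDF1 over all replicates, 0 to 1 for Space against BDF1 in replicates 1 to 3, 0 to 5 for Space and 3 to 6 for Ground against BDF1 in replicates 4 to 6, and for the difference between sets 0 to 2 for Space and 0 to 4 for Ground against BDF1. The highest counts for the second set and for the difference were found without Ground replicate 4, the Ground library of low Serpina1e. Scaling by total counts turned the log2 changes in replicates 4 to 6 of Serpina3k (-0.17 in Space, -0.051 in Ground pups), Serpina3m (-0.22 and -0.24) and Serpina3n (-0.052 and -0.039), as the median of all genes moved to -0.39 and -0.46. Without the 3 libraries, Serpina1c (-0.10), Serpina3k (-0.18) and Serpina3m (-0.0041) turned in Ground against BDF1. Serpina3m in Space against BDF1 ranged from -0.0095 without Space replicate 6 to 0.30 without Space replicate 4. Causes beyond the scaling itself were not tested.

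Counts over all genes moved as well. In replicates 4 to 6 they ranged from 570 to 4978 around 1592 for Space and from 895 to 6136 around 2031 for Ground against BDF1, and total counts lowered the upward share of calls from 54.0% to 6.77% and from 51.7% to 6.55%. In replicates 1 to 3 they ranged from 201 to 1207 around 620 and from 35 to 709 around 257, with an upward share of 61.3% under TMM and 39.8% under total counts for Space. Over all replicates they ranged from 231 to 1330 around 488 and from 141 to 1442 around 489, with upward shares moving from 61.7% to 9.23% and from 46.2% to 6.89%. Depth did not limit the 8 genes, whose counts were at least 3224, but shared sequence limits what can be said of single Serpina1 genes.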

Other observations

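Serpina16, a gene of the same cluster chosen here after its values were seen, had 274 counts in Space replicate 4, 449 in Ground replicate 5 and 225 in Ground replicate 6, and 0 or 1 count in each of the other 15 libraries. These are the libraries with high Serpina6, with the highest Serpina1b and, within replicates 4 to 6, with Serpina1e of 5566 to 8933 CPM.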
